A study of Mus musculus with 30 samples.

Results

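The genes that make, receive, amplify and restrain Wnt signals were followed in the uterus of pre-pubertal mice. Members were chosen by symbol in the platform annotation: Wnt or Fzd with a number, Rspo1 to Rspo4, Dkk1 to Dkk4, Sfrp1 to Sfrp5, Lgr4 to Lgr6, Wif1, Wls, Lrp5, Lrp6, Axin2, Nkd1, Nkd2, Lef1, Tcf7, Znrf3, Rnf43 and Notum. A probe set had to carry that symbol alone. The rule found 54 genes of the 30142 tested, each with 1 probe set: 19 Wnt ligands, the ligand carrier Wls, 12 receptors (Fzd1 to Fzd10, Lrp5 and Lrp6), 7 R-spondins and their Lgr receptors, 10 secreted antagonists and 5 feedback or transcription genes (Axin2, Nkd1, Nkd2, Lef1 and Znrf3). The Rnf43 probe set also carries another symbol, and Tcf7 was not among the annotated symbols, so neither was analysed here.

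The study compared uteri of 21-day-old female mice that were wild type (WT) or lacked estrogen receptor alpha, the receptor that most uterine responses to estradiol need (the line is named Ex3aERKO; KO below). Mice of both genotypes received an intraperitoneal injection of 100 ul saline with collection at 24 h, of 250 ng estradiol (E2) in 100 ul saline with collection at 2 h or 24 h, or of 50 ug of the growth factor IGF1 in PBS with collection at 2 h. The 24 h IGF1 groups had 3 such injections. Each of the 10 groups holds 3 arrays of whole-uterus RNA, and the labels do not say whether mice were pooled, so p-values measure the spread between these arrays, which may be partly technical. Saline was sampled at 24 h only: a 2 h group set against saline also differs from it in time since injection, and the IGF1 groups also in vehicle and, at 24 h, in the number of injections.

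Wnts are secreted lipid-modified glycoproteins. Wls escorts them to the cell surface, where they bind Frizzled receptors with the co-receptors Lrp5 and Lrp6 and stabilise beta-catenin, which then acts with Tcf and Lef factors in the nucleus, while other Wnts such as Wnt5a and Wnt11 signal mainly without beta-catenin. R-spondins bind Lgr4 to Lgr6 and withdraw the ubiquitin ligases Znrf3 and Rnf43 that remove Frizzleds from the membrane, so they raise the response of a cell to Wnt. Sfrps and Wif1 bind Wnts outside the cell, Dkk1 and Dkk2 bind Lrp5 and Lrp6, Notum removes the lipid, and Axin2, Nkd1, Nkd2 and Znrf3 act as brakes within or on the receiving cell. In the mouse uterus, Wnt7a, Wnt4 and Wnt5a are known for roles in duct patterning, gland formation and decidualization.

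Array medians lay between 6.17 and 6.47 on the log2 scale of the deposited values. The background floor of an array was the signal that 95% of its 1225 olfactory receptor genes did not exceed, 5.69 to 6.57, and a gene is called above background in a group where its mean exceeds the mean floor. Esr1, the gene the knockout targets, read 9.38 to 10.41 on the KO arrays and 11.44 to 12.73 on the WT arrays, with no overlap; whether its probe set lies in the deleted part is not given in the sources used here. Markers of epithelium (12 of 13), stroma (11 of 11) and smooth muscle (10 of 10) were above the floor on all 30 arrays, the gland gene Foxa2 on 13, and the ovary and oviduct genes Ovgp1, Inha, Gdf9, Amh and Zp3 on 30, 25, 8, 0 and 0; the part of such tissue in the results was not tested. Arrays standing apart were WT saline replicate 1 and KO E2 24 h replicate 2. The former had an Xist level of 10.16 against 17.01 to 18.12 on the other 29 arrays, with no rise of the Y-linked genes Kdm5d, Eif2s3y and Uty (4.86 to 5.39), and a mean correlation of 0.974 with the other arrays of its group. KO E2 24 h replicate 2 had the highest median and floor, 6.47 and 6.57. Its mean correlation with its group, 0.981, was close to those of the KO IGF1 2 h arrays (0.981 to 0.983). The data weights of both arrays standing apart were 0.166 and 0.259, the lowest of all, and comparisons that use either array are given with and without it.

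Upstream sequence was printed for the members called with E2 at 2 h in WT uteri that changed at least 2-fold and whose RefSeq promoter entry (GRCm38.p6) lies outside the gene span: Lgr6 and Wnt4, which rose, and Dkk2, Nkd2 and Wls, which fell. Capitals mark GC boxes (GGGCGG, or CCGCCC on the other strand) and the TATA box (TATAAA), the only motifs searched that these windows hold. They are given 5′ to 3′ on the gene's strand, at chr1:135105375-135105526 (minus strand) for Lgr6, chr4:137277385-137277634 (plus) for Wnt4, chr3:132085042-132085265 (plus) for Dkk2, chr13:73847632-73847881 (minus) for Nkd2 and chr3:159839400-159839649 (plus) for Wls.
Lgr6: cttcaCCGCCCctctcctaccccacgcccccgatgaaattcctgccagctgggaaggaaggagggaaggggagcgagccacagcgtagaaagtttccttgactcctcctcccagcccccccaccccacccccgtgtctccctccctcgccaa
Wnt4: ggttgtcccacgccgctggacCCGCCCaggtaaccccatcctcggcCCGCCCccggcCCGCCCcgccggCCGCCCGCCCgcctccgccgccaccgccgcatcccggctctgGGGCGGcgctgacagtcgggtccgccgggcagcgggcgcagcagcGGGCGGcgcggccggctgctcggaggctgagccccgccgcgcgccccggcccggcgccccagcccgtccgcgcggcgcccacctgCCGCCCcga
Dkk2: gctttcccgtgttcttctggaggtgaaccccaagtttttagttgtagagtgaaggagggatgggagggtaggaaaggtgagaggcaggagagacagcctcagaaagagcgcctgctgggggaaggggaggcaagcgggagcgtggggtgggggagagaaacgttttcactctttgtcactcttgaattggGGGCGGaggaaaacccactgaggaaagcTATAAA
Nkd2: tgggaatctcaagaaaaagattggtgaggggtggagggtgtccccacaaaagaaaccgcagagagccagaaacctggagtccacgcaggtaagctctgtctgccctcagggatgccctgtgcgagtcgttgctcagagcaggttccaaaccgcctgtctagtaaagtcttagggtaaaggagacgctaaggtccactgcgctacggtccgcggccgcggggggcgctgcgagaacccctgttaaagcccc
Wls: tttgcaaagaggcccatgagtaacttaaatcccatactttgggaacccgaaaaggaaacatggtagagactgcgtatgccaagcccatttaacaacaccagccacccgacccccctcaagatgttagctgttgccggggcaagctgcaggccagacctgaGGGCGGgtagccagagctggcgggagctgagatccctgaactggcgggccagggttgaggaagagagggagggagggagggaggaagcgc

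Of the 54 members, 35 had a promoter entry, 41 in all, out of 32851 entries of 27025 genes. Rspo3, Sfrp4, Lgr5 and Lrp5, which changed at least 2-fold with E2 at 2 h in WT uteri, had no entry. They were not searched. Both strands of the 250 bases before the start were searched, and only the bases outside the gene span are printed. The full palindromic estrogen response element was in 0 of the 41 entries and in 0.0639% of all entries. At so low a share, 0 of 41 cannot tell the members from other genes. Its core GGTCA alone was in 39% against 35.2%. The Tcf and Lef site CTTTGAA was found in 2.44% against 4.46%, CTTTGAT in 4.88% against 3.21% and the AP-1 site TGANTCA in 2.44% against 6.75%. GC boxes stood in 68.3% of the members' entries and 32.7% of all entries, and TATAAA in 14.6% against 12.4%. In the printed windows Wnt4 holds 8 GC boxes, some of them overlapping, and Nkd2 none.

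Among the members, 29 were above background in all 10 groups, 8 in some groups (Lgr6, Wif1, Wnt6, Wnt9a, Wnt11, Wnt16, Fzd8 and Notum) and 17 in none. The 17 were the ligands Wnt1, Wnt2, Wnt3, Wnt3a, Wnt5b, Wnt7b, Wnt8a, Wnt8b, Wnt9b, Wnt10a and Wnt10b, the R-spondins Rspo2 and Rspo4, the antagonists Dkk1, Dkk4 and Sfrp5, and the receptor Fzd9. Ligands above background in every group were Wnt2b, Wnt4, Wnt5a and Wnt7a. All 4 ligands rest on their own probe sets, whose levels cannot be set against each other. Over the 20 comparisons made, 40 members (74.1%) were called at least once at an adjusted p below 0.05, against 68.2% of all genes, and 14 never. In the 4 treatments of WT mice 26 (48.1%) were called, against 42.6% of all genes, and in the 4 of KO mice 10 (18.5%), against 18.1%, so these shares lay near the background. The members never called included Fzd4, Fzd5, Fzd6 and Fzd8, which were above background in at least 8 groups.

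Rspo3, an R-spondin, had the widest range of group means. Its means in WT uteri were 15.20 with saline, 10.44 and 13.54 with E2 at 2 h and 24 h, and 12.53 and 14.85 with IGF1 at 2 h and 24 h. In KO uteri they were 14.47, 14.54, 14.09, 12.43 and 13.47 in the same order (SD over 3 arrays 0.19 to 2.16, the widest in the KO IGF1 2 h group). The lowest group was thus WT E2 2 h. Lgr5, an R-spondin receptor and stem cell marker in other epithelia, stood at 8.31, 7.09, 7.28, 7.89 and 8.38 in WT and at 10.68, 10.06, 11.14, 10.25 and 10.12 in KO uteri (SD 0.12 to 0.63), so that every KO group lay above every WT group. Lgr6, its paralog, stood at 5.81, 8.69, 6.04, 6.0 and 5.85 in WT and 5.53, 5.54, 5.73, 5.73 and 5.45 in KO uteri (SD 0.03 to 0.21), at or near the floor everywhere but in WT E2 2 h. Wls gave 11.30, 10.09, 10.93, 10.73 and 11.59 in WT and 13.16, 12.06, 12.97, 11.73 and 11.71 in KO uteri (SD 0.06 to 0.60).

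The brakes of the pathway and Dkk2 complete the 8 members with the widest ranges, in the same order of groups. Axin2 stood at 8.72, 10.79, 7.93, 9.27 and 8.22 in WT and 8.83, 8.65, 8.29, 8.60 and 8.12 in KO uteri (SD 0.02 to 0.42). Nkd1 stood at 8.91, 7.79, 8.19, 9.94 and 8.70 in WT and 9.12, 9.20, 8.81, 10.30 and 9.38 in KO uteri (SD 0.13 to 0.77). These inhibitors therefore had their WT maxima in different groups, Axin2 with E2 and Nkd1 with IGF1, both at 2 h. Nkd2 followed the order of Nkd1 in WT, with 7.91, 6.62, 7.47, 9.49 and 7.80, and gave 8.33, 8.12, 8.01, 8.70 and 8.61 in KO uteri (SD 0.14 to 0.40). Dkk2 gave 9.08, 6.73, 7.78, 7.75 and 8.36 in WT and 8.25, 8.57, 7.90, 7.34 and 7.93 in KO uteri (SD 0.16 to 1.23), the most scattered of the 8 after Rspo3.

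**Figure D1:**
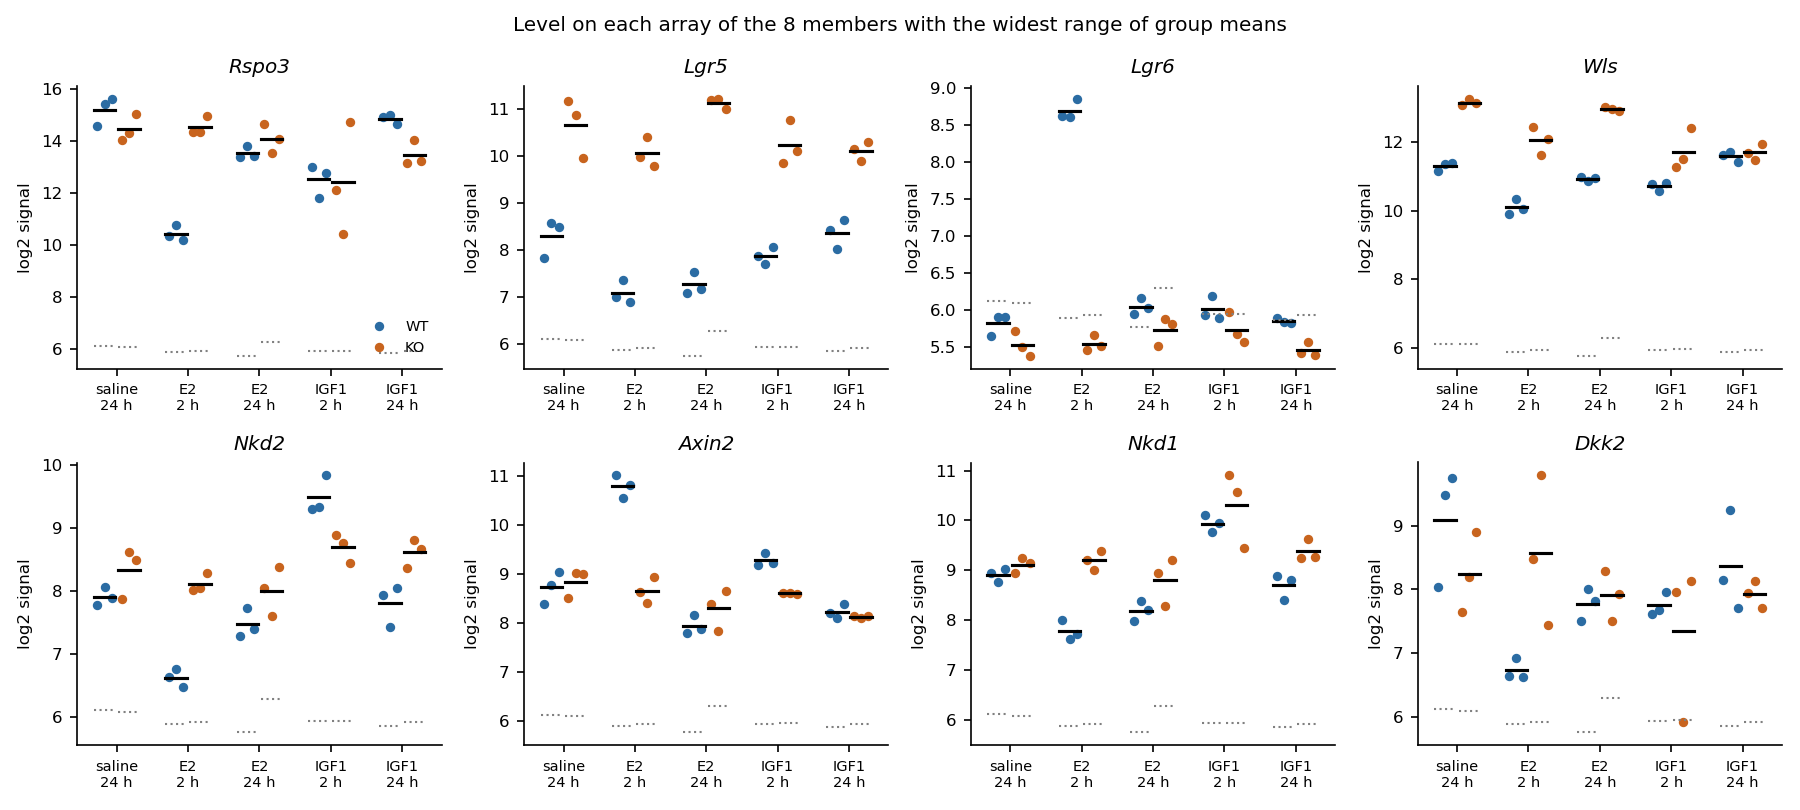
Log2 signal (vertical axes, scales differ) of the 8 members with the widest range of group means, on each of the 3 arrays of the 10 groups (blue WT, orange KO; black bars are group means, dotted lines the mean floor). Rspo3 falls from 15.20 to 10.44 with E2 at 2 h in WT only, Lgr6 reaches 8.69 in that group and at most 6.04 in the others, and the KO arrays of Lgr5 and Wls lie above the WT arrays under saline and E2.

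The comparison of saline-treated KO and WT uteri asks what the absence of the receptor changes without added hormone. The R-spondin receptor gene Lgr5, the carrier Wls, the receptor Fzd3 and the ligands Wnt11 and Wnt5a were higher in KO uteri, as was the transcription factor gene Lef1; the antagonists Wif1 and Sfrp2 were lower. These are 8 of 54 members (14.8%, 6 higher and 2 lower), against 2.92% of all genes called (1.61% higher and 1.3% lower). The other 46 members differed by -1.37 to 0.53. The median over all 54 members was 0.01, and that of all genes -0.01. With only the 2 groups compared in the fit, 3 members were called (0.7% of all genes), Lgr5, Wls and Wnt11; Fzd3 (adjusted p = 0.0774), Wif1 (0.102), Lef1 (0.135), Wnt5a (0.175) and Sfrp2 (0.344) were not.

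Lgr5 read 7.83, 8.59 and 8.49 on the WT arrays and 11.19, 10.87 and 9.97 on the KO arrays. Wls read 11.15, 11.36 and 11.40 in WT and 13.08, 13.27 and 13.14 in KO. Neither overlapped between genotypes, and the differences were 2.37 ± 0.27 (log2, SE; 5.17-fold, adjusted p = 8.26e-06) and 1.86 ± 0.21 (3.62-fold, adjusted p = 8.65e-06). Fzd3, a Frizzled known mainly from axon guidance, read 7.18, 7.78 and 7.50 in WT and 8.76, 8.75 and 8.32 in KO, a difference of 1.12 ± 0.19 (adjusted p = 0.00084). Wnt11 read 5.76, 5.62 and 5.86 in WT, not above background, and 6.63, 6.97 and 6.79 in KO, at least 1.60-fold higher (adjusted p = 0.000324). Where a group mean is not above background, such a bound sets the brighter group against the higher of the floor and the dim signal on each array. The antagonist Wif1 ran the other way, with 7.12, 7.08 and 6.43 in WT and 6.03, 5.50 and 5.47 in KO, at least 1.73-fold lower in KO (adjusted p = 0.00259).

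Wnt5a was higher in KO by 0.81 ± 0.15 (adjusted p = 0.00197), Lef1 by 0.79 ± 0.22 (adjusted p = 0.047), and Sfrp2 was lower, at -0.82 ± 0.22 (adjusted p = 0.0378), with overlapping arrays. Replicate numbers deviated together here, and with the number as a block Lef1 was not called (adjusted p = 0.0592). Lef1 also lost its call without any of 5 arrays left out singly, all but WT saline replicate 3 (0.64 to 0.80, adjusted p 0.101 to 0.185), and Sfrp2 without WT saline replicate 2 or 3 or KO saline replicate 1 or 2 (-0.67 to -0.78, adjusted p 0.125 to 0.211). Without the aberrant WT saline replicate 1, 7 of the 8 calls held, Lgr5 at 2.13 and Wls at 1.78. Epithelial markers moved with this comparison: 5 of 13 were higher in KO and 0 lower, with a median of 1.19, and the log2 of their summed signal was 13.27 to 14.23 in WT and 14.45 to 15.16 in KO. Of the stromal markers 1 of 11 was lower, with a median of -0.62 and summed levels of 17.93 to 18.83 in WT and 17.68 to 18.34 in KO. Their part in the members' differences was not tested. In whole tissue, fewer cells of a type and less RNA per cell cannot be told apart.

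The E2 groups of WT mice were set against saline. At 2 h this comparison also holds a difference in time since injection. After 2 h, 19 of 54 members (35.2%) were called, against 19% of all genes: 5 rose and 14 fell, while 9.84% of all genes rose and 9.18% fell. The rising members were the R-spondin receptor Lgr6, the feedback inhibitor Axin2, the co-receptor Lrp5 and the ligands Wnt4 and Wnt9a. The falling members were the R-spondins Rspo3 and Rspo1, the receptor Lgr5, the carrier Wls, the Frizzleds Fzd1, Fzd2 and Fzd7, the antagonists Dkk2, Sfrp4 and Sfrp2, the inhibitors Nkd1 and Nkd2, and the ligands Wnt5a and Wnt3a, the last not above background. The median was -0.14 over the members and -0.09 over all genes. The 35 members not called changed by -0.55 to 0.34.

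Wnt4, a ligand with a known part in gland formation and decidualization, read 7.71, 7.26 and 7.32 with saline and 9.10, 8.33 and 8.35 with E2. The change was 1.17 ± 0.17 (2.25-fold, adjusted p = 2.06e-05). Wnt9a was not above background with saline and rose at least 1.15-fold, a call lost without E2 replicate 2 or saline replicate 3 (0.50 and 0.48, adjusted p 0.0544 and 0.0619). Wnt5a fell by 0.47 ± 0.15 (adjusted p = 0.0284), a call lost without E2 replicate 3 or saline replicate 2 or 3 (-0.39 to -0.46, adjusted p 0.0688 to 0.139) and with the arrays centred (-0.36, adjusted p = 0.195). Wnt7a, the epithelial ligand, differed by -0.17 ± 0.30 and was not called. Wls fell on every array, to 9.90, 10.35 and 10.04 from the saline values given above, by 1.21 ± 0.21 (adjusted p = 0.000147).

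Among receptors, Lrp5 read 7.52, 7.35 and 7.44 with saline and 8.65, 8.34 and 8.88 with E2, a rise of 1.19 ± 0.13 (2.27-fold, adjusted p = 4.87e-07). Its partner Lrp6 differed by -0.55 and was not called (adjusted p = 0.0595). The Frizzleds that were called all fell: Fzd2 by 0.96 ± 0.18 (adjusted p = 0.000325), Fzd1 by 0.82 ± 0.19 (adjusted p = 0.00294) and Fzd7 by 0.74 ± 0.19 (adjusted p = 0.00731). The other 7 Frizzleds were not called.

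The R-spondin arm had the largest changes in both directions. Rspo3 read 14.57, 15.40 and 15.62 with saline and 10.36, 10.77 and 10.19 with E2, and fell by 4.76 ± 0.61 on the log2 scale (27.0-fold lower, adjusted p = 3.25e-06). Lgr6 read 5.65, 5.89 and 5.90 with saline, below the mean floor, and 8.62, 8.61 and 8.85 with E2, at least 5.91-fold higher (adjusted p = 3.33e-14). The 2 receptors of the same ligand family thus separated, for Lgr5 went from its saline values to 7.01, 7.36 and 6.91, a fall of 1.21 ± 0.27 (2.32-fold, adjusted p = 0.00172). Lgr4 differed by -0.19 ± 0.16 and was not called. Rspo1 fell by 0.88 ± 0.29 (adjusted p = 0.0341), but without any of 5 arrays, all but saline replicate 3, it was not called (-0.77 to -0.90, adjusted p 0.0731 to 0.112).

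Secreted antagonists were called in 1 direction, 3 lower of 10. Dkk2 read 8.03, 9.48 and 9.74 with saline and 6.65, 6.92 and 6.63 with E2, a fall of 5.10-fold (-2.35 ± 0.54, adjusted p = 0.00252). Sfrp4 read 11.87, 12.17 and 12.29 with saline and 10.48, 10.45 and 10.44 with E2 (-1.65 ± 0.48, adjusted p = 0.0157; -1.57 and adjusted p = 0.0526 without saline replicate 3). Sfrp2 was 1.86-fold lower (-0.90 ± 0.22, adjusted p = 0.00408). Sfrp1, their paralog, differed by -0.34 ± 0.52 and was not called.

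Feedback genes that often rise together with beta-catenin signalling moved apart. Axin2, a scaffold of the complex that destroys beta-catenin, read 8.39, 8.76 and 9.03 with saline and 11.01, 10.55 and 10.81 with E2, a rise of 2.06 ± 0.19 (4.18-fold, adjusted p = 1.96e-08). Nkd1 and Nkd2, which bind Dishevelled, fell: Nkd1 from 8.94, 8.77 and 9.03 to 8.01, 7.63 and 7.72 (-1.13 ± 0.26, adjusted p = 0.0025) and Nkd2 from 7.78, 8.06 and 7.88 to 6.63, 6.76 and 6.48 (-1.29 ± 0.21, adjusted p = 8.93e-05). Lef1 (-0.06 ± 0.22) and Znrf3 (-0.41 ± 0.16, adjusted p = 0.0726) were not called.

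Without WT saline replicate 1, 19 members were again called, 17 of them shared; Rspo1 (-0.85, adjusted p = 0.0905) and Wnt3a (-0.21, adjusted p = 0.184) were lost, and Znrf3 (-0.57, adjusted p = 0.0147) and Lrp6 (-0.75, adjusted p = 0.0159) were gained. Rspo3 then stood at -5.07, Lgr6 at 2.80, Axin2 at 1.90 and Dkk2 at -2.88. Stromal markers moved with this comparison: 6 of 11 fell and 0 rose, with a median of -0.95, a mean log2 signal of 11.20 to 11.78 with saline and 10.25 to 10.42 with E2, and summed levels of 17.93 to 18.83 and 17.85 to 18.01. Epithelial markers rose in 3 of 13, with summed levels of 13.27 to 14.23 and 13.53 to 14.10. The part of either in the members' changes was not tested.

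**Figure D2:**
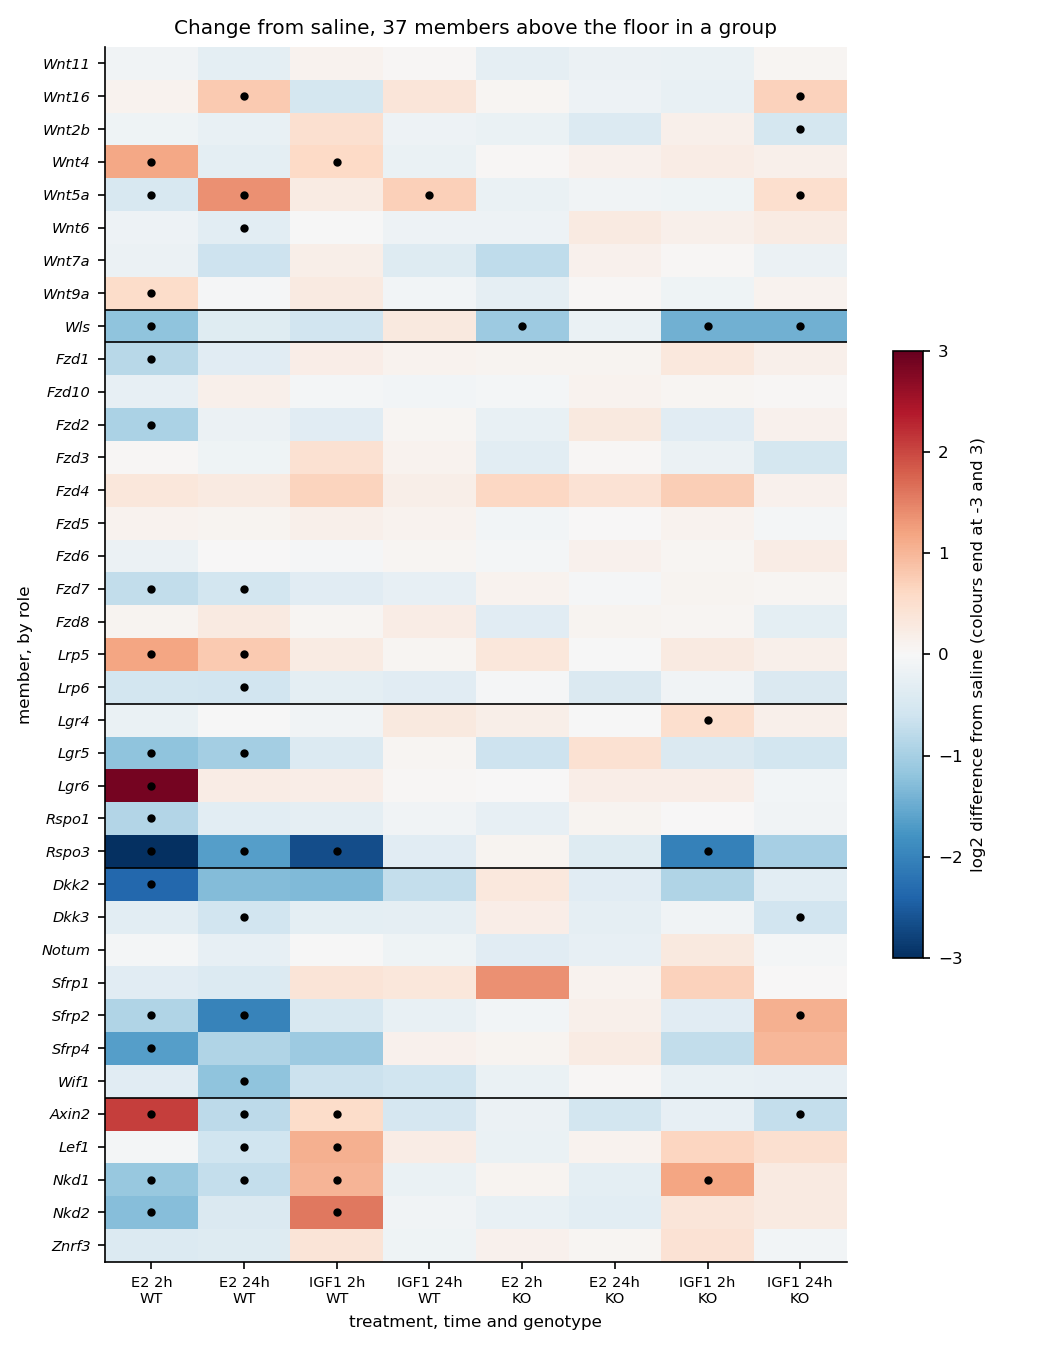
Change from saline (colour, log2; scale ends at -3 and 3) of the 37 members above background in at least 1 group, ordered by role, in the 4 treatments of WT and of KO mice; dots mark adjusted p below 0.05. With E2 at 2 h in WT the column holds the extremes, Lgr6 at 2.88 and Rspo3 at -4.76, whereas in KO mice E2 gives a dot for Wls alone at 2 h and none at 24 h.

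At 24 h of E2 in WT uteri, the ligands Wnt5a and Wnt16 and the co-receptor Lrp5 were higher than with saline, and 12 members were lower, chief among them the antagonists Sfrp2 and Wif1, with Rspo3, Lgr5 and Axin2. The 15 called members are 27.8% of 54, close to the 30.1% of all genes called. Their median was -0.22, against -0.10 over all genes, of which 16.8% rose and 13.3% fell. The 39 members not called changed by -1.31 to 0.27. With each array centred on its median 7 members were called, 3 higher and 4 lower, against 28% of all genes. The members' share then lay below that of all genes, and the median of all genes moved to 0.01.

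Wnt5a read 7.77, 8.07 and 7.94 with saline and 9.36, 9.26 and 9.29 with E2, a rise of 1.38 ± 0.15 (2.60-fold, adjusted p = 2.28e-07). Wnt16 rose by 0.78 ± 0.19 (adjusted p = 0.00367) and Lrp5 by 0.78 ± 0.13 (adjusted p = 7.84e-05). Sfrp2 read 9.97, 10.76 and 10.80 with saline and 8.49, 8.65 and 8.40 with E2 (-2.00 ± 0.22, adjusted p = 2.23e-07). Wif1 fell from 7.12, 7.08 and 6.43 to 5.71, 5.54 and 5.78, not above background and at least 2.14-fold lower (adjusted p = 0.00031). Lgr5 was at 7.10, 7.54 and 7.18 (-1.03 ± 0.27, adjusted p = 0.0049) and Rspo3 at 13.40, 13.80 and 13.42 (-1.66 ± 0.61, adjusted p = 0.0421), a call lost without any array but saline replicate 1 (-1.45 to -1.79, adjusted p 0.064 to 0.117). Axin2, which had risen at 2 h, was below saline, at 7.79, 8.15 and 7.86 (-0.79 ± 0.19, adjusted p = 0.00261).

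The remaining calls were small: Nkd1 -0.72, Lef1 -0.59, Lrp6 -0.58, Dkk3 -0.58, Fzd7 -0.55, and Wnt6 and Wnt2, both below background, -0.33 and -0.30. Each of these 7 was lost when some arrays were left out: Nkd1 without WT saline replicate 1 or 3 or E2 replicate 1 or 3 (adjusted p 0.0789 to 0.128), Lef1 and Lrp6 without any array but saline replicate 1 (0.0655 to 0.155 and 0.0601 to 0.134), Dkk3 without saline replicate 3 or E2 replicate 1 (0.0654 and 0.0604), Fzd7 without saline replicate 1 or 2 or E2 replicate 1 or 3 (0.0713 to 0.134), Wnt6 without saline replicate 1 or 2 or E2 replicate 2 or 3 (0.0681 to 0.0917) and Wnt2 without saline replicate 3 or E2 replicate 1 (0.0531 and 0.0847). The count of calls was 8 without E2 replicate 1 and 9 without E2 replicate 3 or saline replicate 3. Without WT saline replicate 1, 14 were called, 12 of them shared, with Sfrp2 at -2.27 and Wnt5a at 1.30, and Dkk2 (-1.83, adjusted p = 0.0198) and Znrf3 (-0.55, adjusted p = 0.0132) were gained. Epithelial markers rose in 11 of 13 with a median of 2.86, and their summed level was 13.27 to 14.23 with saline and 16.55 to 16.80 with E2; stromal markers rose in 4 and fell in 1 of 11, with summed levels of 17.93 to 18.83 and 18.08 to 18.14. Their part in the members' changes was not tested.

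Set directly against each other in WT mice, the 24 h and 2 h E2 groups differed in 14 members (25.9%, 7 in each direction), against 27.4% of all genes (17% higher and 10.4% lower). Axin2 (-2.85 ± 0.19, adjusted p = 4.57e-11), Lgr6 (-2.65 ± 0.13, adjusted p = 2.11e-13) and Wnt4 (-1.45 ± 0.17, adjusted p = 4.84e-07) were lower at 24 h. Rspo3 (3.10 ± 0.61, adjusted p = 0.000345) and Wnt5a (1.85 ± 0.15, adjusted p = 1.37e-09) were higher. Lgr6 was back at 5.94, 6.16 and 6.03 and Wnt4 at 6.96, 7.25 and 7.22 at 24 h. Wnt5a read 7.56, 7.52 and 7.29 and Sfrp2 9.91, 9.40 and 9.54 at 2 h, so none of these 4 overlapped between the times. Nkd2 (0.85), Wls (0.84), Fzd2 (0.78), Wnt16 (0.68) and Fzd10 (0.39) were also higher, and Sfrp2 (-1.10), Wif1 (-0.85), Wnt9a (-0.60) and Lrp5 (-0.40) lower. Of these, Wnt16 was lost without 24 h replicate 1 (0.57, adjusted p = 0.0586), Fzd10 without 2 h replicate 3 or 24 h replicate 2 (0.34 and 0.24, adjusted p 0.0954 and 0.204), and Lrp5 without 2 h replicate 1 or 3 or 24 h replicate 1 or 2 (-0.27 to -0.41, adjusted p 0.0571 to 0.184). Epithelial markers were higher at 24 h in 12 of 13 (median 2.25; summed level 13.53 to 14.10 at 2 h and 16.55 to 16.80 at 24 h) and stromal markers in 8 of 11, with 1 lower (median 2.04; 17.85 to 18.01 and 18.08 to 18.14). Their part was not tested.

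With E2 at 2 h in KO mice 1 member was called against saline, a comparison that also differs in time since injection. Wls fell from 13.08, 13.27 and 13.14 with saline to 12.45, 11.63 and 12.10, by 1.10 ± 0.21 (adjusted p = 0.0157), with no overlap of arrays; 0.365% of all genes were called (0.259% higher and 0.106% lower). The call was lost without KO E2 2 h replicate 2 (-0.89, adjusted p = 0.17), KO saline replicate 1 (-1.14, adjusted p = 0.057) or KO saline replicate 2 (-1.05, adjusted p = 0.0805), and without KO E2 2 h replicate 3 there were 2 calls; with only the 2 groups in the fit Wls was not called (adjusted p = 0.35). The fall of Wls had a similar size in WT mice, and the difference between genotypes, 0.11 ± 0.30, was not called (adjusted p = 0.92). At 24 h of E2 in KO mice limma called 0 members and 0 genes (0%); at an unadjusted p below 0.05 there were 6 members and 3735 genes (12.4%), and the members changed by -0.54 to 0.46. No setting tried called a member there.

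The change with E2 at 2 h differed between genotypes for 10 members (18.5%, against 8% of all genes, 3.61% higher and 4.39% lower): 5 where the KO change was the higher and 5 where it was the lower. Rspo3, which fell by 4.76 in WT, changed by 0.07 ± 0.61 in KO mice, where it read 14.05, 14.32 and 15.04 with saline and 14.34, 14.33 and 14.96 with E2; the difference of changes was 4.83 ± 0.86 (adjusted p = 0.000646). Lgr6 stayed at 5.45, 5.65 and 5.51 with E2 in KO mice, all below the mean floor (-2.87 ± 0.18, adjusted p = 6.97e-11). Axin2 read 8.63, 8.39 and 8.93 with E2 in KO mice against 8.50, 9.02 and 8.99 with saline (-2.24 ± 0.27, adjusted p = 3.95e-06). With saline Lgr6 read 5.71, 5.49 and 5.38 in KO mice. The groups of these 3 genes overlapped in KO and were apart in WT mice.

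Wnt4 (-1.14 ± 0.24, adjusted p = 0.00358), Lrp5 (-0.84 ± 0.19, adjusted p = 0.00529) and Wnt9a (-0.83 ± 0.22, adjusted p = 0.0185) had smaller changes in KO than in WT mice. Wnt9a was above background only in WT mice with E2 among these groups, so its KO change could not be measured. Dkk2 (2.67 ± 0.76, adjusted p = 0.0296), Nkd1 (1.21 ± 0.37, adjusted p = 0.0407), Nkd2 (1.07 ± 0.30, adjusted p = 0.0275) and Fzd1 (0.90 ± 0.27, adjusted p = 0.0392) fell in WT and did not fall detectably in KO mice. In KO mice Wnt4 read 7.27, 7.12 and 7.19 with saline and 7.38, 7.15 and 7.15 with E2, and Nkd1 read 9.20, 9.01 and 9.39 with E2. Nkd2 read 7.87, 8.62 and 8.50 with saline and 8.01, 8.04 and 8.29 with E2, and Dkk2 7.65, 8.20 and 8.90 with saline and 8.48, 9.79 and 7.44 with E2. The groups of these 4 genes overlapped in KO mice, the Dkk2 arrays with E2 being the most scattered. These last 4 and Wnt9a depended on single arrays among the 12: left out singly, 10 arrays ended the call of Nkd1 (all but WT E2 replicate 1 and KO E2 replicate 2; 1.11 to 1.28, adjusted p 0.0511 to 0.0955), 8 that of Fzd1 (all but WT E2 replicate 2, KO E2 replicate 1, WT saline replicate 2 and KO saline replicate 3; 0.75 to 0.94, adjusted p 0.0558 to 0.109), 7 that of Dkk2 (WT E2 replicates 1 and 3, KO E2 replicate 2, WT saline replicates 2 and 3, KO saline replicates 1 and 2; 2.06 to 2.65, adjusted p 0.0584 to 0.103), 5 that of Nkd2 (WT E2 replicates 1 and 3, KO E2 replicate 3, WT saline replicate 2, KO saline replicate 1; 0.84 to 1.07, adjusted p 0.0568 to 0.0959) and 2 that of Wnt9a (KO E2 replicate 2 and WT saline replicate 3; -0.75 for both, adjusted p 0.0546 and 0.056). Fzd1 was also lost with the replicate number as a block (adjusted p = 0.0503). Without WT E2 2 h replicate 3, 6 differences were called. Without WT saline replicate 1 there were 11, 8 of them shared, and Sfrp2 (1.09, adjusted p = 0.0183), Znrf3 (0.69, adjusted p = 0.0469) and Wnt5b (-0.51, adjusted p = 0.0469) were gained. With the arrays centred on their medians the split was 3 higher and 6 lower (7.07% of all genes). With array weights 20 differences were called, 14 higher and 6 lower (15.3% of all genes). The stromal markers' change was the higher in KO mice for 7 of 11 and the lower for 0 (median 1.54), and the epithelial markers' was the lower for 2 of 13 (median 0.20). The summed stromal level was 17.68 to 18.34 with saline and 17.85 to 18.20 with E2 in KO mice, and the epithelial one 14.45 to 15.16 and 14.77 to 15.44, with the WT values given above. The part of either was not tested.

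At 24 h of E2 the change differed between genotypes for 9 members (16.7%, against 22.1% of all genes, 9.96% higher and 12.2% lower), 6 higher and 3 lower in KO mice. The WT rises of Wnt5a (-1.49 ± 0.21, adjusted p = 2.66e-05), Wnt16 (-0.94 ± 0.27, adjusted p = 0.0176) and Lrp5 (-0.80 ± 0.19, adjusted p = 0.00398) were larger than the changes in KO mice, which were -0.12, -0.16 and -0.01. In KO mice Wnt5a read 8.43, 9.08 and 8.71 with saline and 8.58, 8.54 and 8.75 with E2, so these groups overlapped. Wnt16 was not above background in KO mice with E2, so a fall there could not be fully measured. Sfrp2 read 9.62, 9.43 and 10.02 with saline and 10.15, 9.79 and 9.61 with E2 in KO mice, so its difference of changes was 2.16 ± 0.31 (adjusted p = 2.75e-05). Lgr5 (1.49 ± 0.38, adjusted p = 0.0067) and Wif1 (1.24 ± 0.33, adjusted p = 0.00848) also had higher changes in KO than in WT mice. With E2 the KO arrays read 11.19, 11.22 and 11.0 for Lgr5 and 5.64, 5.92 and 5.56 for Wif1, overlapping the KO saline arrays. Wif1 was not above background in KO mice with saline or E2, so a fall there could not be measured. Wnt6 (0.59), Fzd9 (0.85) and Wnt2 (0.40) also differed, with Fzd9 and Wnt2 below background in every group and Wnt6 below it in the groups compared here.

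Of these, Fzd9 was lost without WT saline replicate 1 (0.70, adjusted p = 0.0632) or KO E2 replicate 2 (0.63, adjusted p = 0.0738), and Wnt2 without WT saline replicate 3, WT E2 replicate 1 or 3, KO saline replicate 3 or KO E2 replicate 2 (0.32 to 0.39, adjusted p 0.0501 to 0.0801). Wif1 was lost without both aberrant arrays together (1.02, adjusted p = 0.067), and 6 of the 9 calls were then kept. The median of all genes in this comparison was 0.19, and 0.00 with the arrays centred, after which Wnt6 (0.40, adjusted p = 0.0839) and Wnt2 (0.21, adjusted p = 0.248) were not called. Lgr5, Wnt5a, Wnt16, Lrp5 and Sfrp2 were called under every setting tried. Removing dim genes, which takes out some members, left 5 calls, against 32.3% of the 16444 genes kept. The epithelial markers' change was the lower in KO mice for 10 of 13 and the higher for 0 (median -3.02), the stromal markers' was the lower for 3 of 11 (-0.83) and the smooth muscle markers' for 3 of 10 (-1.17). The summed epithelial level was 14.45 to 15.16 with saline and 13.66 to 15.32 with E2 in KO mice, against 13.27 to 14.23 and 16.55 to 16.80 in WT mice. The part of these markers in the members' differences was not tested.

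**Figure D3:**
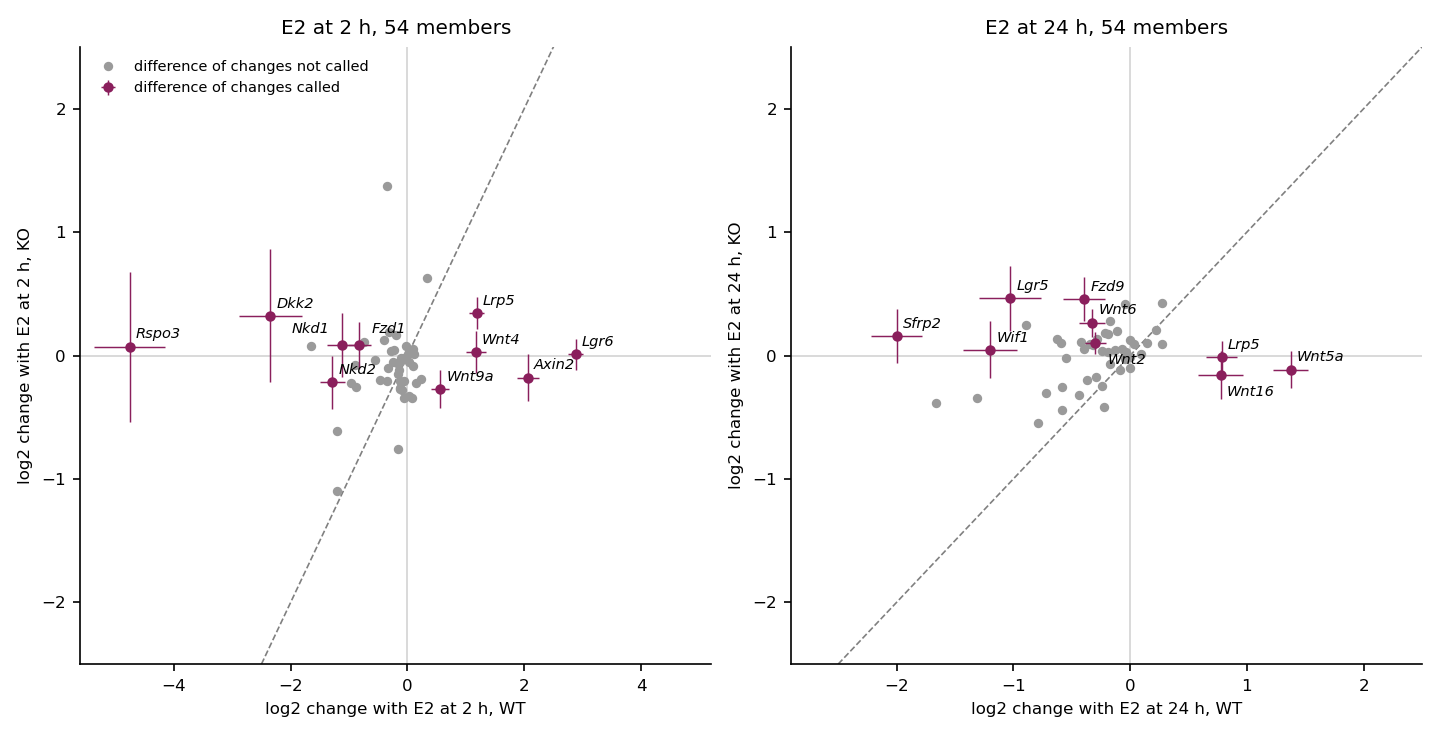
Log2 change with E2 in WT (horizontal axis) against that in KO mice (vertical axis) for the 54 members at 2 h and at 24 h; the panels have different horizontal scales, bars are SEs, and the dashed line marks equal changes. Purple members, whose changes differ between genotypes at adjusted p below 0.05 (10 and 9), run from Rspo3 (-4.76 in WT, 0.07 in KO) to Lgr6 (2.88 in WT, 0.01 in KO) at 2 h. At 24 h Fzd9 (-0.39 and 0.46) and Wnt6 (-0.33 and 0.27) have opposite signs. Both genes lie below background in the groups compared, and neither KO change was called. The changes share the saline arrays of each genotype.

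The IGF1 groups ask what this growth factor changes in each genotype. In WT uteri at 2 h, the feedback and transcription genes Nkd2, Lef1, Nkd1 and Axin2 and the ligand Wnt4 rose and Rspo3 fell: 6 of 54 members (11.1%), against 17.2% of all genes (9.54% higher and 7.64% lower). Nkd2 read 7.78, 8.06 and 7.88 with saline and 9.31, 9.33 and 9.84 with IGF1, 2.99-fold higher (1.58 ± 0.21, adjusted p = 2.23e-05). Lef1, a nuclear partner of beta-catenin, read 6.43, 6.72 and 6.99 with saline and 7.96, 7.46 and 7.94 with IGF1 (1.08 ± 0.22, adjusted p = 0.000945). Nkd1 went to 10.11, 9.76 and 9.95 (1.02 ± 0.26, adjusted p = 0.00653). All 3 sets of arrays were apart. Rspo3 read 12.98, 11.81 and 12.79 and fell by 2.67 ± 0.61 (adjusted p = 0.00288), so it was lower than with saline at 2 h after either hormone.

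Wnt4 rose by 0.59 ± 0.17 (adjusted p = 0.0177) with overlapping arrays, and Axin2 by 0.55 ± 0.19 (adjusted p = 0.0482). Axin2 was lost without any array but saline replicate 3 (0.38 to 0.59, adjusted p 0.0745 to 0.261), and Wnt4 without IGF1 replicate 1 or 2 or saline replicate 2 or 3 (0.44 to 0.59, adjusted p 0.0514 to 0.126). Without WT saline replicate 1, 8 members were called, 5 of them shared, Rspo3 at -2.98 and Nkd2 at 1.52; Dkk2 (-1.86, adjusted p = 0.0288), Sfrp2 (-0.76, adjusted p = 0.0178) and Wnt3 (0.37, adjusted p = 0.0494) were gained. Quantile normalization gave 4 higher and 3 lower (16.8% of all genes). Array weights gave 10 and 10, with 28.5% of all genes called and 5 of the 6 members shared. Epithelial markers rose in 6 of 13 (summed level 13.27 to 14.23 with saline, 14.13 to 14.27 with IGF1), and their part in the members' changes was not tested.

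At 24 h of IGF1 in WT uteri, 1 member was called, against 4.28% of all genes (3.32% higher and 0.962% lower). Wnt5a read 8.59, 8.56 and 8.74 and was higher by 0.70 ± 0.15 (adjusted p = 0.00923). The call was lost without WT saline replicate 1 (0.63, adjusted p = 0.0511) or IGF1 replicate 3 (0.65, adjusted p = 0.0549). With only the 2 groups in the fit it was not called (adjusted p = 0.0861), and array weights called 6 members (13.1% of all genes). The other 53 members changed by -0.72 to 0.37. Stromal markers rose in 3 of 11 and epithelial ones in 2 of 13, with summed levels of 18.23 to 18.73 and 14.48 to 14.66, and their part was not tested.

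In KO uteri at 2 h of IGF1, 4 members were called (7.41%, against 7.13% of all genes, 4.19% higher and 2.95% lower), 2 in each direction. Wls fell to 11.27, 11.50 and 12.41, by 1.43 ± 0.21 (adjusted p = 0.000516), with no overlap with saline. Nkd1 rose from 8.95, 9.26 and 9.15 to 10.90, 10.56 and 9.44 (1.18 ± 0.26, adjusted p = 0.00731), a call lost without IGF1 replicate 1 (0.88, adjusted p = 0.0914). Rspo3 read 12.13, 10.44 and 14.73, which overlaps the saline range of 14.05 to 15.04 (-2.04 ± 0.61, adjusted p = 0.0426), and the call was lost without any array but IGF1 replicate 3 (-1.04 to -2.25, adjusted p 0.0631 to 0.271). Lgr4 was higher by 0.51 ± 0.16 (adjusted p = 0.0499), lost without any array but IGF1 replicate 3 (0.45 to 0.55, adjusted p 0.0742 to 0.16) and with the replicate number as a block (adjusted p = 0.0643). Quantile normalization gave 1 higher and 2 lower (7.6% of all genes), and array centring left 2 calls (6.39%). With only the 2 groups in the fit, 0 members and 0 genes were called, with an adjusted p of 0.29 for Wls. Smooth muscle markers rose in 3 of 10, epithelial markers in 2 of 13 and stromal markers in 1 of 11, and their part was not tested.

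After 24 h of IGF1 in KO uteri, 7 members were called (13%, against 13.6% of all genes, 9.28% higher and 4.35% lower), 3 higher and 4 lower. Wls read 11.69, 11.49 and 11.95, 2.73-fold lower than with saline (-1.45 ± 0.21, adjusted p = 0.000107). Sfrp2 read 10.88, 10.53 and 10.89, 2.10-fold higher (1.07 ± 0.22, adjusted p = 0.00164). These 2 calls held without each array in turn. Wnt16 (0.70), Wnt5a (0.51), Axin2 (-0.71), Dkk3 (-0.56) and Wnt2b (-0.54) did not: Wnt16 was lost without KO saline replicate 1 or IGF1 replicate 1 or 3 (adjusted p 0.0666 to 0.107), Wnt5a without saline replicate 1 or 3 or IGF1 replicate 1 or 3 (0.0621 to 0.157), Axin2 without saline replicate 2 or 3 (0.074 and 0.0547), Dkk3 without those or IGF1 replicate 1 or 3 (0.0584 to 0.124) and Wnt2b without any array but saline replicate 1 (0.0649 to 0.342). The count was 3 with only the 2 groups in the fit (10.5% of all genes), 3 without IGF1 replicate 1 or 3 and 4 without saline replicate 2. The split was 3 higher and 2 lower with the arrays centred (13.3% of all genes) and 2 and 5 after quantile normalization (13.6%). Stromal markers rose in 6 and fell in 1 of 11, with a mean log2 signal of 10.55 to 11.28 with saline and 11.36 to 11.64 with IGF1 but a summed level of 17.68 to 18.34 and 16.35 to 16.71; epithelial markers rose in 4 of 13 (summed 14.45 to 15.16 and 14.97 to 15.87). Their part was not tested.

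In the fit over all groups, no difference between genotypes in the IGF1 change was called for a member, at 2 h or 24 h, where limma called 4 and 2 of all genes (0.0133% and 0.00664%). At an unadjusted p below 0.05 there were 5 members at each time, and at 24 h fits on the groups compared called 1 member and array weights 2. Wls came closest: at 24 h it changed by 0.29 ± 0.21 in WT and by -1.45 ± 0.21 in KO mice, a difference of -1.74 ± 0.30 (adjusted p = 0.0517). For Nkd2 at 2 h the changes were 1.58 in WT and 0.37 in KO mice, a difference of -1.21 ± 0.30 (adjusted p = 0.453). For the members called at 2 h in WT alone, such as Nkd2 and Lef1, the difference between genotypes was not called.

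E2 and IGF1 were set against each other at matched times, with different vehicles. At 24 h they also differed in the number of injections, 1 of E2 and 3 of IGF1. In WT uteri at 2 h, 13 members differed (24.1%, against 5.57% of all genes, 2.8% higher and 2.77% lower), 4 higher and 9 lower with E2. The inhibitors Nkd2 (-2.87 ± 0.21, adjusted p = 7.64e-10) and Nkd1 (-2.15 ± 0.26, adjusted p = 2.65e-06), which had moved away from saline in opposite directions, were lower with E2, and so were Lef1 (-1.13 ± 0.22, adjusted p = 0.00113), Fzd1 (-1.03 ± 0.19, adjusted p = 0.000922), Znrf3 (-0.80 ± 0.16, adjusted p = 0.00139) and Wnt5a (-0.71 ± 0.15, adjusted p = 0.00335). Lgr6 (2.69 ± 0.13, adjusted p = 1.43e-13), Axin2 (1.52 ± 0.19, adjusted p = 4.61e-06) and Lrp5 (0.95 ± 0.13, adjusted p = 2.5e-05) were higher. With IGF1 Lgr6 read 5.93, 6.19 and 5.89 and Axin2 9.18, 9.41 and 9.22; with E2 Lef1 read 6.76, 6.64 and 6.57, and Fzd1 read 7.02, 7.17 and 6.96 against 8.25, 7.97 and 8.01 with IGF1. Axin2 and the Nkd genes, all inhibitors in the receiving cell, thus separated the 2 treatments in opposite directions. Array weights called 20 members (12.9% of all genes).

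Rspo3 (-2.09), Wnt2b (-0.62), Fzd2 (-0.61) and Wnt4 (0.58) were called as well, each depending on single arrays. Rspo3 and Wnt2b were lost without any array but WT IGF1 2 h replicate 2 (adjusted p 0.0697 to 0.185 and 0.0743 to 0.215), Fzd2 without any of the 6 (0.0537 to 0.173), and Wnt4 without E2 replicate 1 or IGF1 replicate 2 or 3 (0.114 to 0.425). Fzd2 was also lost with the replicate number as a block (adjusted p = 0.0582). Stromal markers were lower with E2 in 6 of 11 (median -1.42; summed level 17.85 to 18.01 with E2, 17.87 to 18.06 with IGF1) and an epithelial marker higher in 1 of 13, and their part was not tested. In KO uteri at 2 h, 3 members were lower with E2 (5.56%, against 3.04% of all genes, 1.9% lower and 1.14% higher): Nkd1 (-1.10 ± 0.26, adjusted p = 0.0231), Lef1 (-0.85 ± 0.22, adjusted p = 0.0325) and the deacylase Notum (-0.63 ± 0.14, adjusted p = 0.021). Each was lost without KO E2 2 h replicate 1 or 2 or KO IGF1 2 h replicate 1 or 2 (adjusted p 0.0594 to 0.279), and without KO IGF1 2 h replicate 3 the count was 7. With only the 2 groups in the fit 0 members and 0 genes were called. Of the epithelial, stromal and smooth muscle markers 0 were called.

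At 24 h in WT uteri, Wnt5a (0.67 ± 0.15, adjusted p = 0.00401) and Lrp5 (0.74 ± 0.13, adjusted p = 0.000542) were higher with E2 than with IGF1, and Sfrp2 (-1.78 ± 0.22, adjusted p = 4.95e-06), Lgr5 (-1.10 ± 0.27, adjusted p = 0.00796), Lef1 (-0.82 ± 0.22, adjusted p = 0.0141) and Wls (-0.66 ± 0.21, adjusted p = 0.0448) were lower: 6 members (11.1%, against 10.1% of all genes, 7.59% higher and 2.49% lower). Lef1 was lost without E2 replicate 1 or IGF1 replicate 1 (-0.76 and -0.74, adjusted p 0.0561 and 0.0608) and Wls without any of the 6 arrays (adjusted p 0.0548 to 0.182); with only the 2 groups in the fit 10 members were called (12.8% of all genes). With IGF1 Lgr5 read 8.44, 8.04 and 8.64 and Sfrp2 10.24, 10.37 and 10.27, apart from the E2 arrays. Epithelial markers were higher with E2 in 9 of 13 (median 1.79; summed level 16.55 to 16.80 against 14.48 to 14.66) and stromal markers in 2 of 11, and their part was not tested. In KO uteri at 24 h, 8 members differed (14.8%, against 21.5% of all genes, 10.2% higher and 11.3% lower), 4 in each direction, and Wls (1.25 ± 0.21, adjusted p = 0.000268) and Lgr5 (1.02 ± 0.27, adjusted p = 0.00923) were higher with E2. Wnt16 (at least 1.62-fold, adjusted p = 0.00333), Sfrp2 (-0.92 ± 0.22, adjusted p = 0.00485) and Wnt5a (-0.63 ± 0.15, adjusted p = 0.00513) were lower. Nkd2, Fzd3 and Fzd9 were lost without the aberrant KO E2 24 h replicate 2 (-0.40, 0.55 and 0.32, adjusted p 0.261, 0.103 and 0.251), which left 5 calls; Nkd2 was lost also without KO E2 24 h replicate 1 or IGF1 replicate 2 or 3, Fzd3 without E2 replicate 1 or IGF1 replicate 2, and Fzd9 without E2 replicate 3 or IGF1 replicate 2 or 3 (adjusted p 0.0544 to 0.179). Centring the arrays gave 2 higher and 4 lower (19.5% of all genes), and fits on the 2 groups 5 calls (10.9%). Wls read 13.02, 12.97 and 12.91 with E2 in KO mice, and Lgr5 10.16, 9.90 and 10.30 with IGF1; neither gene's arrays overlapped between treatments. Stromal markers were lower with E2 in 7 and higher in 1 of 11 (median -1.13), smooth muscle markers lower in 4 of 10 and epithelial markers lower in 3 of 13 (-0.60). Summed stromal levels were 17.66 to 18.12 with E2 and 16.35 to 16.71 with IGF1, and the markers' part was not tested.

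Under E2 the genotypes differed in more members and in more of all genes than under saline (14.8% and 2.92%). The members' share at 24 h lay below that of all genes. At 2 h, 22 of 54 were called (40.7%, against 17.9% of all genes, 9.2% higher and 8.67% lower), 15 higher and 7 lower in KO uteri, and at 24 h 20 (37%, against 47% of all genes, 27.7% higher and 19.3% lower), 16 higher and 4 lower. Lgr5 and Wls were higher in KO uteri under saline and at both times: by 2.97 ± 0.27 and 1.97 ± 0.21 at 2 h (adjusted p = 1.14e-08 and 2.11e-07) and by 3.86 ± 0.27 and 2.03 ± 0.21 at 24 h (adjusted p = 2.09e-10 and 7.39e-08). At 2 h Lgr5 read 9.98, 10.41 and 9.80 in KO uteri, and Wls at 24 h read 10.97, 10.87 and 10.96 in WT uteri, both apart from the other genotype. Fzd3 (0.77 and 1.29) and Wnt11 (at least 1.55-fold and 1.81-fold) were higher at both times too. At 24 h Fzd3 read 7.31, 7.39 and 7.39 in WT and 8.87, 8.68 and 8.42 in KO uteri, and Wnt11 5.33, 5.58 and 5.46 in WT and 6.81, 6.50 and 6.54 in KO uteri. Wnt5a was higher in KO at 2 h (1.08 ± 0.15, adjusted p = 9.51e-06) and lower at 24 h (-0.68 ± 0.15, adjusted p = 0.00091). The latter was not called after quantile normalization (-0.36, adjusted p = 0.0735). Its KO arrays read 8.56, 8.57 and 8.49 at 2 h, above the WT values given above.

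The antagonist Sfrp1 differed at 2 h without having been called against saline in either genotype: it read 7.32, 7.42 and 7.49 in WT and 9.92, 10.88 and 8.19 in KO uteri, 4.76-fold higher (2.25 ± 0.52, adjusted p = 0.00285), with KO arrays spread over more than 2 log2 units. Rspo3 (4.10 ± 0.61, adjusted p = 2.36e-05), Nkd2 (1.49 ± 0.21, adjusted p = 1.46e-05), Nkd1 (1.41 ± 0.26, adjusted p = 0.000278) and Fzd1 (1.06 ± 0.19, adjusted p = 0.00026) were higher in KO uteri at 2 h as well; the KO arrays of Fzd1 read 7.96, 8.04 and 8.32. Lgr6 was at least 6.80-fold lower (adjusted p = 4.16e-15), Axin2 stood at -2.13 ± 0.19 (adjusted p = 9.38e-09), and Wnt4 (-1.37 ± 0.17, adjusted p = 2.33e-06), Lrp5 (-1.19 ± 0.13, adjusted p = 4.4e-07) and Wif1 (at least 1.51-fold, adjusted p = 0.00149) were lower too. Wnt9a (at least 1.32-fold) and Wnt5b (-0.42, below background) complete the lower members. Lrp5 read 7.58, 7.50 and 7.20 in KO uteri, and Wif1 6.62, 6.18 and 6.78 in WT and 5.52, 5.49 and 5.37 in KO uteri, with no overlap for either. Of the smaller differences, Dkk2 (1.84) was lost without WT E2 replicate 1 or 3 or KO E2 replicate 2 (adjusted p 0.057 to 0.155), Fzd2 (0.60) without WT E2 replicate 1 or 3 or KO E2 replicate 3 (0.0577 to 0.0796), Lgr4 (0.55) without WT E2 replicate 1 or 3 (0.0708 and 0.0539), Znrf3 (0.60) without KO E2 replicate 3 (0.0628), Fzd3 without KO E2 replicate 1 (0.0602), Wnt5b without KO E2 replicate 2 (0.0512), and Lef1 (0.64) without any array but KO E2 replicate 1 (0.0695 to 0.246) and with the replicate number as a block (0.0509). Markers moved with this comparison: 8 of 13 epithelial markers were higher in KO uteri and 1 lower (median 1.26; summed level 13.53 to 14.10 in WT, 14.77 to 15.44 in KO), and 8 of 11 stromal markers were higher (1.05; 17.85 to 18.01 and 17.85 to 18.20). Their part was not tested.

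At 24 h, Lef1 read 6.0, 6.20 and 6.16 in WT and 7.73, 7.40 and 7.67 in KO uteri, 2.79-fold higher (1.48 ± 0.22, adjusted p = 8.9e-06). Wnt7a read 7.03, 7.37 and 7.31 in WT and 8.70, 8.26 and 8.16 in KO uteri, 2.20-fold higher (1.14 ± 0.30, adjusted p = 0.00365). Both sets of arrays were apart. Sfrp2 was higher in KO (1.34 ± 0.22, adjusted p = 3.34e-05), against a lower level under saline, and Lrp5 (-1.15 ± 0.13, adjusted p = 3.82e-07) and Wnt16 (at least 1.92-fold, adjusted p = 7.93e-05) were lower. Lrp5 read 8.23, 8.15 and 8.29 in WT and 7.17, 6.87 and 7.18 in KO uteri, and Wnt16 7.51, 7.10 and 7.31 in WT and 6.10, 6.19 and 6.31 in KO uteri, with no overlap. Wif1, lower in KO under saline and at 2 h, differed by 0.03 ± 0.23 at 24 h, where it was not above background in either genotype.

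The other 10 members called at 24 h differed by 0.77 at most. Among them Fzd9 (0.77) and Wnt6 (0.61), below background in both genotypes, held without each array, and Lgr6 (-0.31), Nkd2 (0.53), Znrf3 (0.52), Fzd1 (0.59), Wnt2 (0.29), Wnt8a (0.52), Wnt10a (0.28) and Wnt10b (0.35) did not. Wnt2, Wnt8a, Wnt10a and Wnt10b were below background in both genotypes as well. Without the aberrant KO E2 24 h replicate 2, 17 members were called, 15 of them shared, and Fzd1, Wnt2, Wnt8a, Wnt10a and Wnt10b were lost (adjusted p 0.0785 to 0.145). Other arrays that ended calls were WT E2 24 h replicate 1 (Nkd2, Wnt2, Wnt8a, Wnt10a), replicate 2 (Lgr6, Wnt10a) and replicate 3 (Lgr6, Nkd2, Fzd1, Wnt10a, Wnt10b), and KO E2 24 h replicate 1 (Lgr6, Nkd2, Znrf3, Fzd1, Wnt8a, Wnt10a) and replicate 3 (Lgr6, Nkd2). The median of all genes was 0.18 in this comparison and 0.02 with the arrays centred. Centring left 9 higher and 6 lower members (38.5% of all genes). With only the 2 groups in the fit 13 were called (35.8% of all genes). Epithelial markers were lower in KO uteri in 9 of 13 and higher in 0 (median -1.73; summed level 16.55 to 16.80 in WT, 13.66 to 15.32 in KO), stromal markers lower in 7 of 11 (-1.45; 18.08 to 18.14 and 17.66 to 18.12) and smooth muscle markers lower in 7 of 10 (-1.64; 18.87 to 19.04 and 15.51 to 17.64). Their part was not tested.

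**Figure D4:**
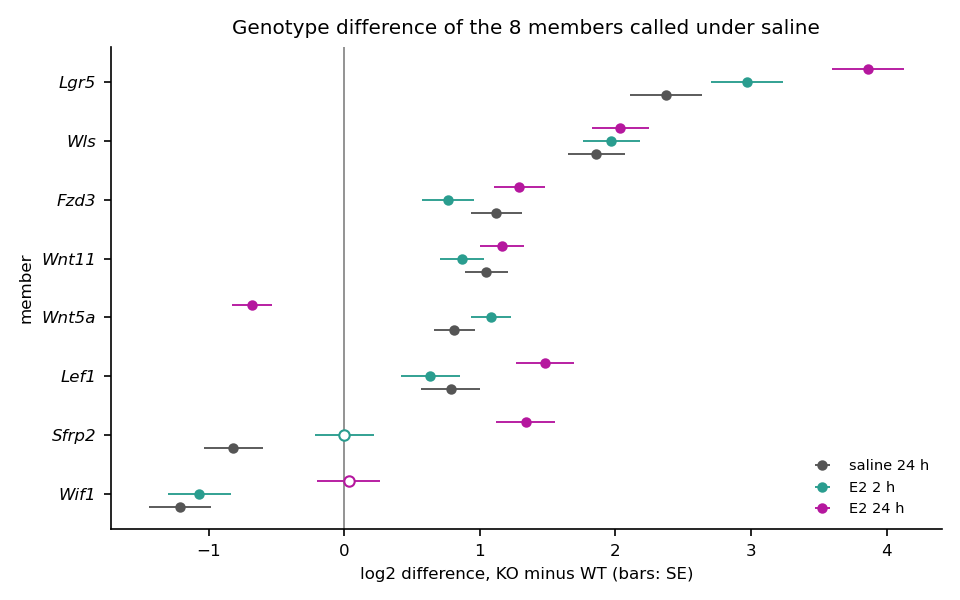
Log2 difference between KO and WT uteri (horizontal axis, bars SE, n = 3 arrays per group) of the 8 members called under saline, with saline (grey), E2 at 2 h (green) and E2 at 24 h (magenta); open symbols were not called. Lgr5 (2.37, 2.97 and 3.86) and Wls (1.86, 1.97 and 2.03) are higher in KO uteri in all 3, whereas Wnt5a changes side at 24 h and Sfrp2 lies at -0.82 and 1.34 at the 24 h points.

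Other genes of the pathway came from 4 lists. With E2 at 2 h in WT uteri, 5 of 26 genes of the intracellular machinery rose and 5 fell; the largest changes were those of the kinase Csnk1a1 (1.79 ± 0.11) and the corepressor Tle3 (1.53 ± 0.15), and of Tle1 (-1.36 ± 0.17) and the scaffold Amer1 (-1.35 ± 0.22). Of 23 other cell-surface and secreted genes 3 rose and 6 fell, led by the Wnt-cleaving protease Trabd2b (2.33 ± 0.23) and the Wnt5a receptor Ror2 (1.26 ± 0.17), and by the Frizzled ligand Ndp (-1.79 ± 0.41) and Prickle1 (-1.04 ± 0.13). Of 19 genes known as Wnt targets in other tissues 3 rose and 5 fell: Sox9 (3.04 ± 0.28) and Jun (1.83 ± 0.30) against Tnfrsf19 (-1.48 ± 0.18) and Bmp4 (-0.86 ± 0.28). Uterine partners of the pathway rose in 5 and fell in 6 of 15, with Greb1 (4.83 ± 0.14) and Pgr (2.67 ± 0.33) against Nr2f2 (-2.59 ± 0.18) and Hoxa11 (-1.94 ± 0.29). Medians were -0.05, -0.09, -0.27 and -0.16, with -0.09 over all genes, and the share of all genes called was the 19% given above.

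With E2 at 24 h in WT uteri the 4 lists had 5, 5, 4 and 2 genes higher and 4, 4, 5 and 0 lower, with Porcn, which adds the lipid to Wnts, at 0.81 ± 0.29, Gpc3 at -1.70 ± 0.41, Myc at 1.33 ± 0.27, Bmp4 at -1.20 ± 0.28 and Igf1 at 1.62 ± 0.28. With IGF1 at 2 h in WT, 7 intracellular genes rose and 3 fell, led by Tle3 (1.37 ± 0.15) and Axin1 (0.97 ± 0.17), while 3 of the 23 surface genes and 3 of the 19 targets rose and 2 of each fell. Myc rose by 1.48 ± 0.27 and Bmp4 stood at -1.16 ± 0.28. None of the 15 uterine partners was called there, and at 24 h of IGF1 in WT only Daam2 of the 4 lists was called (0.44 ± 0.12). In KO mice with E2, 1 gene of the 4 lists was called at 2 h, Fgf9 (-1.17 ± 0.20), and 0 at 24 h. IGF1 at 2 h in KO mice gave 3, 0, 5 and 0 genes higher and 0, 1, 1 and 0 lower in the same order of lists, with Dvl3 at 0.76 ± 0.17, Myc at 1.27 ± 0.27, Ndp at -1.35 ± 0.41 and Fgf9 at -1.03 ± 0.20. At 24 h it gave 2, 0, 1 and 3 higher and 0, 0, 1 and 0 lower, with Daam2 at 0.65 ± 0.12, Ccn4 at 0.48 ± 0.15, Hoxa11 at 1.39 ± 0.29, Hand2 at 1.25 ± 0.27 and Fgf9 at -1.32 ± 0.20.

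Under saline the lists had 0, 2, 2 and 0 genes higher and 0, 1, 2 and 4 lower in KO than in WT uteri. Higher were Celsr1 (0.87 ± 0.19), Celsr2 (0.58 ± 0.14), Fgf9 (1.33 ± 0.20) and Fgf18 (1.01 ± 0.23), and lower were Ror2 (-0.67 ± 0.17), Sp5 (-0.79 ± 0.15), Twist1 (-0.54 ± 0.14) and the partners Esr1 (-2.04 ± 0.19), Msx2 (-2.01 ± 0.53), Igf1 (-1.03 ± 0.28) and Greb1 (-0.81 ± 0.14), of which Esr1 is the targeted gene. With E2 at 2 h KO uteri had 4, 7, 3 and 6 higher and 6, 3, 3 and 6 lower than WT uteri, from Nr2f2 (2.55 ± 0.18) to Greb1 (-5.86 ± 0.14), and at 24 h 3, 7, 6 and 4 higher and 6, 5, 2 and 6 lower, with Fgf9 at 1.83 ± 0.20 and Igf1 at -2.06 ± 0.28. The E2 change was the higher in KO mice for 3, 2, 2 and 5 genes and the lower for 2, 2, 4 and 4 at 2 h (Hoxa11 2.57 ± 0.40, Greb1 -5.05 ± 0.19), and for 0, 4, 4 and 0 and 2, 3, 0 and 0 at 24 h (Bmp4 1.19 ± 0.40, Ptk7 -0.93 ± 0.32). For the IGF1 change 0 genes of the 4 lists differed between genotypes at either time.

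Against IGF1, E2 at 2 h in WT uteri gave 2, 3, 2 and 4 genes higher and 4, 4, 4 and 5 lower, with Greb1 at 4.80 ± 0.14, Sox9 at 2.20 ± 0.28 and Nr2f2 at -2.48 ± 0.18. At 24 h it gave 1, 0, 2 and 2 higher and 4, 3, 0 and 1 lower, with Igf1 at 1.88 ± 0.28 and Gpc3 at -1.43 ± 0.41. In KO uteri only targets were called at 2 h, 1 higher (Mmp7, 1.82 ± 0.47) and 5 lower (Myc -1.62 ± 0.27), and at 24 h 1, 2, 2 and 1 were higher and 5, 3, 0 and 3 lower, with Fgf9 at 1.26 ± 0.20 and Hoxa11 at -1.96 ± 0.29. From 2 h to 24 h of E2 in WT uteri 7, 8, 4 and 4 were higher and 3, 3, 3 and 5 lower, with Nr2f2 at 2.20 ± 0.18 and Greb1 at -4.31 ± 0.14. The shares of all genes called in these comparisons are those given with the members above.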

How the data were processed

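RNA of whole uterus was hybridised to 30 Affymetrix arrays, per the labels' protocols after Trizol and RNeasy extraction, with 300 ng RNA and the WT Plus kit. The authors deposited normalized log2 values for 72688 probe sets; how they were background-corrected and normalized is not given in the sources used here. Of these, 30604 carry 1 gene symbol, 2146 carry several and 39938 are unnamed here; 827 symbols were updated through their Entrez identifiers. A gene with several probe sets (355 genes) was represented by the one of highest mean, which left 30142 genes.

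Group means were fitted over all 30 arrays with limma 3.58.1 in R 4.3.3 (20 residual degrees of freedom), and p-values were adjusted by Benjamini-Hochberg over all genes within each of 20 comparisons; a call is an adjusted p below 0.05. SDs are over 3 arrays and SEs are limma's; the number of arrays limits the precision. The procedure was tested on simulated data. Members and lists were chosen with earlier results of these data known. Every member is accounted for, called members are named, those changed at least 2-fold are given on each array, the 8 of widest range have all group means, and pathway lists have counts and leading genes.

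Among 16 comparisons of 2 groups, replicate numbers deviated together in 1, KO against WT under saline (correlations 0.43, 0.15 and 0.30), where the pairing is inferred from the data and not the labels. The replicate block, array centring, quantile normalization, array weights, a trended prior, a filter on dim genes, averaged probe sets, fits on the compared groups only, each array left out, and, chosen after seeing the data, both aberrant arrays left out were alternatives. Rnf43 and Tcf7 were not analysed here.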

Additional observations from a re-analysis of the deposited data

Results flagged for a closer look

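These results were singled out because the change with E2 differed between WT and KO mice by limma's test of the difference of changes (KO minus WT, log2, adjusted p below 0.05). At 2 h they were Rspo3 (4.83), Dkk2 (2.67), Nkd1 (1.21), Nkd2 (1.07) and Fzd1 (0.90), whose change was the higher in KO mice, and Lgr6 (-2.87), Axin2 (-2.24), Wnt4 (-1.14), Lrp5 (-0.84) and Wnt9a (-0.83), whose change was the lower. Rspo3, Lgr6, Axin2, Wnt4 and Lrp5 kept the call without each array left out in turn. At 24 h they were Sfrp2 (2.16), Lgr5 (1.49), Wif1 (1.24), Fzd9 (0.85), Wnt6 (0.59) and Wnt2 (0.40), higher in KO mice, and Wnt5a (-1.49), Wnt16 (-0.94) and Lrp5 (-0.80), lower. All of these but Fzd9 and Wnt2 kept the call without each array. Fzd9, Wnt6 and Wnt2 were below background in the groups compared, and Wnt6 and Wnt2 were not called with the arrays centred. Among the groups compared at 2 h, Lgr6 and Wnt9a were above background only in WT mice with E2. Wnt16 was not above background in KO mice with E2 at 24 h. Wif1 was not above background in KO mice with saline or with E2 at 24 h, so a fall there could not be measured. Lrp5 is the member called at both times. No statistical test for outlying arrays was run within the groups of 3. The 2 arrays standing apart were named from their Xist level, median, floor, correlation or weight.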

How the results depend on the processing

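Of 166 calls of a member in a comparison, 93 held under every setting run, 73 were lost under at least 1 and 0 reversed. Array centring ended 35, quantile normalization 23, fits on the compared groups alone 49, the replicate block 6, array weights 4 and a trended prior 3. Filtering dim genes ended 0 of 143, since it removes some members, and averaging probe sets 0. Leaving out each array in turn kept 102.

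Counts of called members moved by over 1.5 times as follows; where no value shows the cause, the cause was not tested. Fits on the compared groups alone, which have fewer arrays, gave 3 for KO against WT under saline (0.7% of all genes called). They gave 0 for IGF1 at 24 h in WT (0.451%), for E2 at 2 h in KO (0.0232%) and for IGF1 at 2 h in KO (0%). For IGF1 at 24 h in KO they gave 3 (10.5%), and for the genotype difference of the 24 h IGF1 change 1 (0.00664%). E2 against IGF1 gave 10 at 24 h in WT (12.8%), and 0 (0%) and 5 (10.9%) at 2 h and 24 h in KO. KO against WT with E2 at 24 h gave 13 (35.8%). Array weights gave 20 for IGF1 at 2 h in WT (28.5%) and for E2 against IGF1 at 2 h in WT (12.9%). They also gave 20 for the genotype difference of the 2 h E2 change (15.3%). With them IGF1 at 24 h in WT had 6 (13.1%) and the difference of the 24 h IGF1 change 2 (0.0597%). Array centring gave 7 for E2 at 24 h in WT (28%) and 2 for IGF1 at 2 h in KO (6.39%). Removing dim genes gave 5 for the genotype difference of the 24 h E2 change (32.3% of the 16444 genes kept). Without both aberrant arrays, chosen after seeing the data, IGF1 at 24 h in WT gave 2 and E2 against IGF1 at 24 h in KO 5. The share of all genes called is not given for settings that leave out arrays.

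With the replicate number as a block, the only comparison with pairing in the data (KO against WT under saline) gave 7 calls (2.91% of all genes). The block gave 7 for IGF1 at 2 h in WT (17.1%), 3 for it in KO (7.01%) and 9 for the genotype difference of the 2 h E2 change (7.89%). It gave 9 for E2 against IGF1 at 24 h in KO (20.8%). For KO against WT with E2 at 2 h and 24 h it gave 21 and 19 (17.7% and 46.6%). No other count changed.

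With 1 array left out, counts ranged from 6 to 8 for KO against WT under saline, 15 to 19 and 8 to 14 for E2 at 2 h and 24 h in WT, 4 to 8 and 0 to 1 for IGF1 in WT, 0 to 2 and 0 for E2 in KO, and 1 to 6 and 3 to 7 for IGF1 in KO. For genotype differences they were 6 to 11 and 8 to 10 with E2 and 0 with IGF1. For E2 against IGF1 they were 9 to 12 and 4 to 6 in WT and 0 to 7 and 5 to 10 in KO, for E2 at 24 h against 2 h 12 to 14, and for KO against WT with E2 18 to 21 and 15 to 19. Signal limits the 17 members not above background in any group.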

Other observations

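Some members were spread widely within a group of 3 arrays. With IGF1 at 2 h in KO uteri, Rspo3 read 10.44 to 14.73 (SD 2.16), Dkk2 5.93 to 8.13 (SD 1.23) and Wnt7a 7.23 to 9.24. With E2 at 2 h in KO uteri, Sfrp1 read 8.19 to 10.88 and Dkk2 7.44 to 9.79 (SD 1.18). The adipocyte gene Cidec ranged from 6.10 to 12.69 over the 30 arrays.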
